A study of Mus musculus with 30 samples.

Results

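Coriobacteriaceae, a family of Gram-positive anaerobic Actinobacteria of the gut, was followed in the stool bacteria of 30 female mice by sequencing of the 16S rRNA gene. Its members were all amplicon sequence variants (ASVs, the sequence units of the deposited tables) to which the authors had given this family and that held at least 1 count in the mice, which made 187 of 12980 ASVs. They carried 51735 of 2611709 counts, or 1.98%. Collinsella, with 39 ASVs, was set against the other genera of the family, with 148 ASVs. The methods describe a grouping of similar sequences into operational taxonomic units, while the read log lists a denoising step, so an ASV here is an entry of the deposited tables and may stand for 1 sequence or for a group of similar ones. The split was chosen by measured values, since Collinsella was singled out when its higher share in the treated groups was already known. Its shares in the treated groups against the model group are therefore a description without a test.

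All mice were female, labelled as C57BL/6 (C57BL/6J in the methods) and as 6-week animals, with 6 mice in each of 5 groups. The methods give 6 weeks for the mice as purchased. Stool was taken at the end of treatment, when the mice were older. The control group received the normal diet, and the other 24 mice received the high-fructose diet (HFru). The control and model groups were given saline by gavage and no compound. The salidroside, tyrosol, and hydroxytyrosol groups received the high-fructose diet and 50, 23 or 26 mg/kg of the compound by gavage. The salidroside dose came from earlier animal work of the authors, and the other doses were converted from it by moles. Tyrosol is a phenol with an ethanol side chain, hydroxytyrosol carries a further hydroxyl group on the ring, and salidroside is the glucoside of tyrosol. Each stool came from a separate mouse. No sequencing batch or cage is labelled, so animals kept together cannot be told apart from animals given the same compound.

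The tables held 41862 to 106609 counts per mouse. A count of 0 allowed a share of up to 0.00281% in the deepest sample and 0.00717% in the shallowest, taking 3 counts as the limit of a count of 0. This limit and the 95% Wilson intervals cover counting error only. A share is a part of the counts of a mouse, so a lower amount of a genus and a higher amount of all other bacteria cannot be told apart. Acinetobacter, an obligate aerobe that is not a usual gut resident, took between 0.0312% and 84.2% of the counts of a mouse. Together with the other genera of a list of obligate aerobes, it took 1.63 to 56.8% in the control group, 42.6 to 86.4% in the model group, 10.4 to 73.7% in the salidroside group, 2.02 to 77.4% in the tyrosol group and 2.25 to 59.6% in the hydroxytyrosol group. Their part in the results was not tested, and shares computed without them are given where they differ.

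Collinsella ferments carbohydrates and is known for enzymes that modify bile acids. Adlercreutzia is known for the conversion of the soy isoflavone daidzein to equol. Paraeggerthella makes little use of sugars, Olsenella forms lactic acid, and Coriobacterium was first described from the gut of an insect. The taxonomy of the tables places all of them in Coriobacteriaceae, while newer schemes move some of them, such as Adlercreutzia and Paraeggerthella, to other families. Besides these 5 named genera, 2 labels held ASVs that were placed in the family and in no named genus. These were written as unidentified (22 ASVs) and unclassified (43 ASVs). Adlercreutzia had 66 ASVs, Coriobacterium 14, Paraeggerthella 2 and Olsenella 1.

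Collinsella was present in every treated mouse and nearly absent without a compound. It held 46111 counts, or 89.1% of the counts of the family, and 46102 of them lay in the 18 treated mice. The 12 untreated mice held 9 counts. Control mouse 6 had 3 of these, a share of 0.00359% (Wilson interval 0.00122 to 0.0105%). Model mouse 6 had the other 6, a share of 0.00598% (0.00274 to 0.0130%). The remaining 10 untreated mice had 0 counts, which allows shares of up to 0.00287 to 0.00717%.

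In the salidroside group, Collinsella took 0.315, 0.0523, 0.253, 9.40, 3.45 and 4.15% of counts in mice 1 to 6. Mice 1 to 3 lay well below mice 4 to 6, and the mean was 2.94% ± 3.63 (SD, n = 6). In the tyrosol group the shares were 6.51, 4.07, 0.891, 1.22, 2.52 and 2.98%, with a mean of 3.03% ± 2.07 (SD, n = 6). In the hydroxytyrosol group they were 1.64, 0.512, 5.44, 2.49, 3.31 and 1.01%, with a mean of 2.40% ± 1.80 (SD, n = 6). The values of the compounds overlapped across most of their range, and the salidroside group was the most spread.

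The lowest treated mouse, salidroside mouse 2, held 23 Collinsella counts, a share of 0.0523% (Wilson interval 0.0349 to 0.0785%). This was 8.75 times the highest untreated share, a ratio that was 6.54 in the authors' unfiltered table and 5.25 in their rarefied table. Of 140 genera, 1 (0.714%) was higher in all 18 treated mice than in all 12 untreated mice, and that genus was Collinsella, as the choice of the genus fixed. Of 785 ASVs, 2 (0.255%) had this pattern. These were ASV_11531 of Collinsella and ASV_1360, an unclassified member of Enterococcaceae, named because so few had the pattern. In the authors' unfiltered table the untreated mice held 11 Collinsella counts, and in their table rarefied to 39768 counts per mouse they held 6. In both tables the counts lay in 2 untreated mice.

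**Figure D1:**
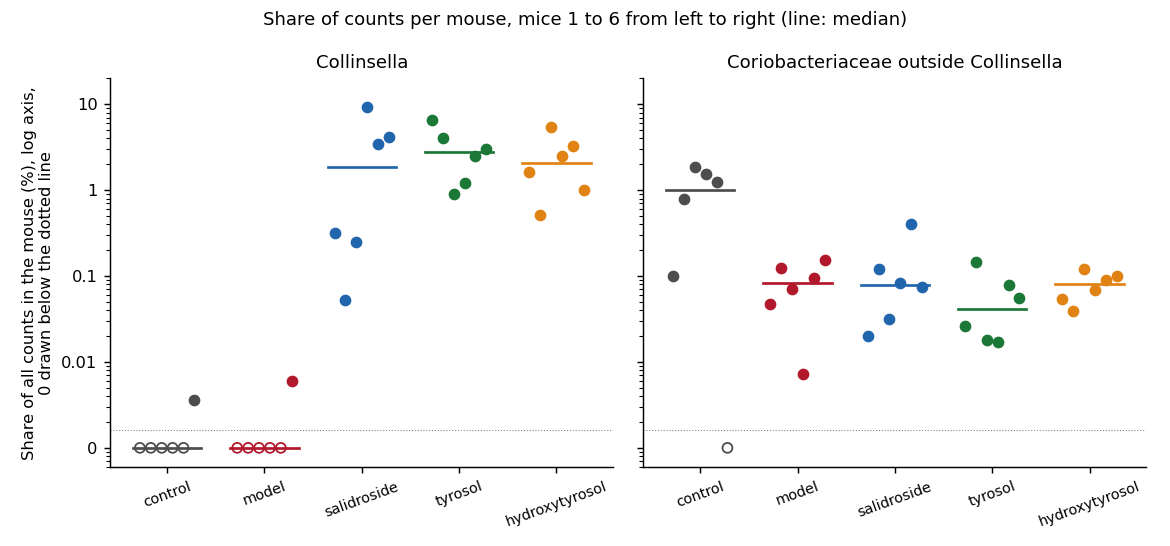
Share of all counts (%, log axis) held by Collinsella (left) and by the other Coriobacteriaceae (right) in each mouse. Points are mice 1 to 6 from left to right, open circles below the dotted line are mice with 0 counts, and lines are medians. All 18 treated mice lay at or above 0.0523% for Collinsella and all 12 untreated mice at or below 0.00598%, while the other genera were highest in 4 control mice.

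The model and control groups did not separate in Collinsella. The means were 0.000996% ± 0.00244 and 0.000598% ± 0.00146 (SD, n = 6 each), each of them set by 1 mouse, and the two-sided exact permutation test gave p = 1. Its sign turned when Acinetobacter was left out of the total and when model mouse 6 was left out, so no direction can be read at these counts.

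The compounds were compared with each other in 3 pairs. The salidroside mean was below the tyrosol mean, with a difference of −0.0950 percentage points (95% interval −3.58 to 3.78, exact permutation p = 0.957, adjusted p = 0.957 over the 3 pairs, n = 6 each). The hydroxytyrosol mean was also below the tyrosol mean, with a difference of −0.631 points (interval −3.18 to 1.87, exact permutation p = 0.580, adjusted p = 0.957, n = 6 each). The salidroside mean was 0.536 points above the hydroxytyrosol mean (interval −2.88 to 4.30, exact permutation p = 0.777, adjusted p = 0.957, n = 6 each). No pair passed the test. The intervals reach differences as large as the mean shares themselves. Neither the glucose unit that sets salidroside apart from tyrosol nor the added hydroxyl group of hydroxytyrosol went with a difference in Collinsella that these samples could resolve.

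The comparison of hydroxytyrosol with tyrosol depended on the total. When the counts of Acinetobacter were left out, Collinsella took 5.83% ± 2.81 of the rest in the tyrosol group and 2.52% ± 1.68 in the hydroxytyrosol group (SD, n = 6 each). That is a difference of −3.31 points, with an exact permutation p of 0.0325 and an adjusted p of 0.0974 over the 3 pairs. Without all listed aerobes the difference was −3.14 points, with an exact permutation p of 0.0498 and an adjusted p of 0.149. Acinetobacter itself took 47.3% ± 30.2 of counts in the tyrosol group and 11.2% ± 17.5 in the hydroxytyrosol group. Salidroside and tyrosol differed by −2.14 points without Acinetobacter (exact permutation p = 0.303, adjusted p = 0.455, n = 6 each).

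**Figure D2:**
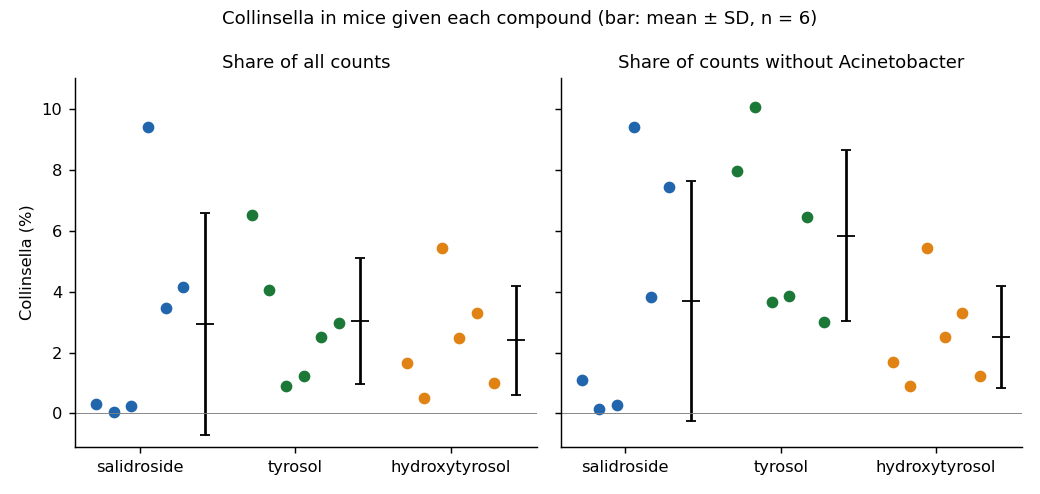
Collinsella (%) in the 18 mice given salidroside, tyrosol or hydroxytyrosol, as a share of all counts (left) and of the counts without Acinetobacter (right). Points are mice 1 to 6 from left to right and bars are the mean ± SD. The tyrosol mean stood at 3.03% on the left and 5.83% on the right, while the hydroxytyrosol mean stood at 2.40 and 2.52%.

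edgeR's quasi-likelihood test over all genera, with library sizes scaled by TMM, gave Collinsella log2 fold changes of −0.01 (SE 1.06, adjusted p = 0.995) for salidroside against tyrosol, −0.23 (SE 0.69, adjusted p = 0.921) for hydroxytyrosol against tyrosol and 0.54 (SE 1.12, adjusted p = 0.806) for salidroside against hydroxytyrosol. In these comparisons 0% of 92 genera, 1.04% of 96 and 0% of 89 were called at an adjusted p under 0.05, and 9, 20 and 10 genera had an unadjusted p under 0.05. Collinsella was not among the genera called.

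A single ASV made up nearly all of Collinsella. ASV_11531, labelled Collinsella stercoris, held 45798 counts, or 99.3% of the genus, and occurred in 20 mice. In each treated mouse it held between 98.4 and 100% of the Collinsella counts. Both untreated mice with Collinsella carried it, with 3 counts in control mouse 6 and 5 in model mouse 6. It was the only ASV of the family found in all 5 groups. Over all ASVs, its log2 fold changes in edgeR between compounds were 0.08 (SE 1.48, adjusted p = 0.995) for salidroside against tyrosol, −0.62 (SE 0.97, adjusted p = 0.754) for hydroxytyrosol against tyrosol and 0.89 (SE 1.39, adjusted p = 0.779) for salidroside against hydroxytyrosol.

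The other 38 Collinsella ASVs held few counts. ASV_50308 had 68 counts in 12 treated mice, where it stood at 0.0499 to 0.467% of ASV_11531. ASV_23910, ASV_46054 and ASV_27283 had 32, 28 and 17 counts, each in 1 mouse. Of the 39 Collinsella ASVs, 30 occurred in 1 mouse only, and together these 30 held 0.427% of the genus. The number of Collinsella ASVs in a mouse of the rarefied table ran from 1 to 7 in the salidroside and hydroxytyrosol groups and from 1 to 13 in the tyrosol group.

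Coriobacterium was found in treated mice only. Its 14 ASVs held 61 counts, and 13 of the 18 treated mice had at least 1. Of all 423 genus labels with counts, 20.1% were found in treated mice only. Hydroxytyrosol mice 3, 4 and 5, the highest of their group for Collinsella, held 0 Coriobacterium counts. Salidroside mouse 5 had the most, with 19 counts. In the treated mice that had it, Coriobacterium stood at 0.0496 to 8.70% of the Collinsella counts, with a median of 0.211%. It did not pass the minimum of 10 counts in 4 mice in any comparison and was not tested.

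Outside Collinsella, the family was highest in control mice. The other genera took 0.101, 0.780, 1.86, 1.56, 1.24 and 0% of counts in control mice 1 to 6. They took 0.0467, 0.124, 0.0711, 0.00717, 0.0948 and 0.154% in model mice 1 to 6. Control mice 2 to 5 lay above every model mouse, control mouse 1 lay among the model mice, and control mouse 6 lay below all of them. The means were 0.924% ± 0.766 in the control group and 0.0831% ± 0.0532 in the model group (SD, n = 6 each). The difference of −0.841 percentage points gave a two-sided exact permutation p of 0.0476 (95% interval −1.52 to −0.0114). Adjusted over the 10 exact tests of this report the p was 0.159, so the difference did not pass after correction.

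Control mice 1 and 6 also had the highest Acinetobacter shares of their group, at 47.3 and 55.4%, against 0.0453 to 18.4% in control mice 2 to 5. Without Acinetobacter in the total, the other genera took 0.989% ± 0.779 in the control group and 0.209% ± 0.152 in the model group (SD, n = 6 each, exact permutation p = 0.0519). Leaving out control mouse 6 raised the control mean to 1.11% ± 0.691 (SD, n = 5), and leaving out mouse 1 as well raised it to 1.36% ± 0.462 (SD, n = 4). Both were the lowest mice of their group, so leaving them out could only raise the mean. The mean rank, the log10 share and the loss of any 1 mouse other than control mouse 1 or 6 each moved the unadjusted p above 0.05. The test on mean ranks, which uses the order of the shares and not their size, gave an exact permutation p of 0.132.

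As shares of all counts, the other genera did not pass the test between any compound group and the model group. The mean share was 0.123% ± 0.144 in the salidroside group, 0.0572% ± 0.0502 in the tyrosol group and 0.0790% ± 0.0304 in the hydroxytyrosol group (SD, n = 6 each), against 0.0831% in the model group. The differences from the model group were 0.0400 (95% interval −0.0716 to 0.183), −0.0260 (−0.0912 to 0.0425) and −0.00409 percentage points (−0.0597 to 0.0528). The two-sided exact permutation p-values were 0.719, 0.400 and 0.870, and all 3 were 0.870 after adjustment. Salidroside mouse 5 alone stood at 0.408%, and without it the salidroside mean was 0.0660% ± 0.0407 (SD, n = 5), on the other side of the model mean. With Acinetobacter out of the total, the differences were −0.0305, −0.0788 and −0.121 points for salidroside, tyrosol, and hydroxytyrosol, with exact permutation p-values of 0.751, 0.353 and 0.0931. Without all listed aerobes they were −0.0740, −0.124 and −0.158 points, with exact permutation p-values of 0.452, 0.197 and 0.0541. All 3 comparisons share the model mice.

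The makeup of the family was read from the part that each genus held of its counts. Collinsella held 91.0 to 97.8% of the family's counts in the hydroxytyrosol mice, 96.5 to 99.6% in the tyrosol mice and 30.3 to 99.1% in the salidroside mice. Adlercreutzia held 71.3 to 100% of it in the model mice, and 66.8 to 81.7% in control mice 1 to 5, while control mouse 6 held 3 family counts, all of Collinsella. The ranges of the treated groups overlapped, as did those of Adlercreutzia in control and model mice. Within the phylum Actinobacteria, the family had a mean share of 66.4% ± 38.9 in the control group, 14.4% ± 16.4 in the model group and 73.2% ± 25.9, 65.1% ± 24.8 and 85.9% ± 16.6 in the salidroside, tyrosol, and hydroxytyrosol groups (SD, n = 6 each). The model group had the lowest mean. Its mice, at 0.276 to 43.4%, overlapped with the control (0.287 to 97.8%), salidroside (34.1 to 99.2%) and tyrosol mice (31.3 to 95.3%). They lay below the hydroxytyrosol mice (53.3 to 96.5%). In the treated groups this share includes Collinsella, which was chosen with its higher share there known. Over all counts, the family took 0.0841% ± 0.0549 in the model group and 0.924% ± 0.765 in the control group (SD, n = 6 each, exact permutation p = 0.0455, adjusted p = 0.159 over the 10 exact tests).

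Adlercreutzia was the main genus outside Collinsella, with 4211 counts. Control mice 1 to 6 held 58, 460, 1097, 436, 615 and 0 counts, and model mice 1 to 6 held 41, 82, 72, 7, 89 and 136. The counts of salidroside mice were 12, 51, 24, 42, 312 and 38. Those of tyrosol mice were 0, 148, 15, 16, 62 and 36, and those of hydroxytyrosol mice 40, 22, 113, 46, 62 and 79. Control mice 2 to 5 had the highest counts of all 30 mice, and the 4 groups on the high-fructose diet overlapped. The mean share was 0.649% ± 0.523 in the control group, 0.0724% ± 0.0432 in the model group, 0.100% ± 0.128 in the salidroside group, 0.0458% ± 0.0518 in the tyrosol group and 0.0669% ± 0.0315 in the hydroxytyrosol group (SD, n = 6 each).

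The unidentified label followed with 1187 counts, of which 1061 lay in 5 control mice. Control mice 1 to 6 held 16, 97, 453, 204, 291 and 0 counts, and model mice 1 to 6 held 0, 33, 0, 0, 10 and 13. The highest model count was below 4 of the 6 control counts. Paraeggerthella had 10 counts, all in control mice 2, 3 and 4, and Olsenella had 2 counts in control mouse 5. The unclassified label had 153 counts in 21 mice, with 30 in the control group, 6 in the model group and 47, 25 and 45 in the salidroside, tyrosol, and hydroxytyrosol groups.

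In edgeR over all genera, no genus of the family outside Collinsella was called in any of the 7 comparisons. Collinsella was not called between compounds and was not tested against the model group, the contrast on which it was chosen. Between the model and control groups 17.5% of 97 genera were called. The family had 2 genera that passed the minimum of 10 counts in 4 of the 12 mice, out of 6 with counts. The log2 fold change was −2.68 for Adlercreutzia (SE 1.58, adjusted p = 0.217) and −4.47 for the unidentified_Coriobacteriaceae label (SE 1.80, adjusted p = 0.0718). The latter depended on the tool and on control mouse 6. DESeq2 gave −4.05 (adjusted p = 0.0186), centred log-ratios with limma gave −4.55 (adjusted p = 0.0396), the rarefied table gave −4.51 (adjusted p = 0.0413) and edgeR without control mouse 6 gave −4.74 (adjusted p = 0.0232). Across its 21 alternatives the adjusted p ran from 0.0186 to 0.166. The label met the minimum of 4 mice through the control group, where it was high, since only 3 model mice held counts of it. Its p-values are therefore a description and no support for a difference. The median log2 fold change over all genera was −0.24.

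Against the model group, 4.12% of 97 genera were called in the salidroside group, 1.94% of 103 in the tyrosol group and 4.95% of 101 in the hydroxytyrosol group. Besides Collinsella, the family had 2, 2 and 1 genera that could be tested. The Adlercreutzia log2 fold changes were 0.12 (SE 1.20, adjusted p = 0.984), −1.14 (SE 1.20, adjusted p = 0.615) and −0.77 (SE 0.87, adjusted p = 0.644). Those of the unidentified_Coriobacteriaceae label were −0.38 (SE 1.60, adjusted p = 0.958) for salidroside and −1.25 (SE 1.58, adjusted p = 0.641) for tyrosol. Between the compounds, Adlercreutzia log2 fold changes were 1.37 (SE 1.13, adjusted p = 0.639) for salidroside against tyrosol, 0.56 (SE 0.96, adjusted p = 0.844) for hydroxytyrosol against tyrosol and 1.03 (SE 0.83, adjusted p = 0.625) for salidroside against hydroxytyrosol.

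Other Actinobacteria and other gut anaerobes give the setting of these values. From a list of Actinobacteria outside the family, 3 genera passed the minimum in the comparison of model with control mice, and none was called in any of the 7 comparisons, in which 3 or 4 of them were tested. From a list of obligate anaerobes of the gut, 17 genera were tested between model and control mice, of which 3 were called higher and 4 lower. In the other 6 comparisons 16 to 18 of them were tested, and the 1 call was a genus higher in hydroxytyrosol than in model mice. Of the listed aerobes, 2 of 10 tested were called lower in salidroside than in model mice. In hydroxytyrosol against model mice 1 of 10 was called lower, and none was called in the other 5 comparisons. Over all genera, 17.5% of 97 were called between model and control mice. Against the model group it was 4.12% of 97 for salidroside and 4.95% of 101 for hydroxytyrosol. The lists were written with earlier results of these data known, and their counts were not tested against these shares.

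The other genera were also followed ASV by ASV. Adlercreutzia had no ASV that held nearly all of its counts, as Collinsella had. Of the 44 Adlercreutzia ASVs in the control group, 9 also occurred in the model group, where 14 were found. These 9 were 20.5% of the control and 64.3% of the model ASVs of the genus, and they held 34.2% of its control counts and 53.6% of its model counts. Over all ASVs of the tables, the 985 shared by control and model mice were 19.1% of the control and 28.3% of the model ASVs and held 75.0 and 80.1% of the counts. The model and salidroside groups shared 5 ASVs, which were 35.7% of the model ASVs and 45.5% of the 11 salidroside ASVs and held 61.8% of the model and 95.8% of the salidroside counts of the genus. Over all ASVs, model and salidroside mice shared 35.4% of the model and 38.1% of the salidroside ASVs, with 94.5 and 84.8% of the counts. The tyrosol and hydroxytyrosol groups had 13 Adlercreutzia ASVs each and shared 2, or 15.4% of each, with 35.0% of the tyrosol and 17.96% of the hydroxytyrosol counts. Over all ASVs they shared 21.3% of the tyrosol and 24.1% of the hydroxytyrosol ASVs, with 88.3 and 85.3% of the counts. These shares were not tested.

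ASV_20416 was the largest Adlercreutzia ASV, with 644 counts, all of them in the control group. Control mice 1 to 6 held 19, 49, 342, 76, 158 and 0 counts, and the other 24 mice held 0. Its mean share was at least 48.3-fold higher in the control than in the model group, where the model group was set at 3 counts per mouse, and at least 31.6-fold without control mouse 3. edgeR over all ASVs gave an adjusted p of 0.00551. All 5 mice in which it had 10 or more counts were control mice, so it entered the test through the group in which it was high, and the p is no support for a difference. In the whole family, 56 ASVs occurred in control mice only, with 54.1% of the family's control counts. A further 18 occurred on both diets, and 113 on the high-fructose diet only. As shares of the 187 family ASVs these were 29.9, 9.63 and 60.4%, close to the 29.7, 10 and 60.3% over all 12980 ASVs. Over all ASVs, those found in control mice only held 18.3% of the control counts.

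ASV_5597 of Adlercreutzia had the opposite pattern. Model mice 1 to 6 held 41, 27, 8, 5, 10 and 83 counts, and all control mice held 0. Its mean share was at least 6.80-fold higher in the model than in the control group (edgeR adjusted p = 0.00551), again with 3 counts per mouse for the group at 0, and at least 4.44-fold without model mouse 6. In model mice it held 11.1 to 100% of the Adlercreutzia counts. It was also found in 5 hydroxytyrosol mice, with 8, 17, 26, 21 and 18 counts in mice 1, 2, 3, 5 and 6, and with 13 counts in salidroside mouse 2. All 6 tyrosol mice held 0. The tyrosol group was at least 9.90-fold lower than the model group (adjusted p = 0.0138), and the hydroxytyrosol group was at least 5.62-fold higher than the tyrosol group (adjusted p = 0.0108). In all 3 comparisons it had 10 or more counts in exactly 4 mice, all of the group in which it was high, so it entered each test through that group and the p-values are no support for a difference. Without model mouse 6 the bound against tyrosol was 6.46-fold.

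In the comparison of model with control mice, 30.4% of 411 ASVs were called. The family had 85 ASVs with counts there, of which 13 passed the minimum and 8 were called, 1 higher and 7 lower in the model group. All 8 were at 0 in one of the groups, so all 8 passed the minimum through the group in which they were high, and 7 of them had 10 or more counts in exactly 4 mice. The count is not support for a difference of the family. Besides ASV_20416, the lower ones were ASV_42391, ASV_40385, ASV_40326 and ASV_15668 of Adlercreutzia and ASV_19233 and ASV_2369 of the unidentified label. They were at least 9.91- to 19.2-fold lower in the model group. Without the control mouse that held the highest share, the bounds fell to 5.49-fold for ASV_15668 (without mouse 3) and to 6.45-fold for ASV_42391 and 8.54-fold for ASV_40385 (without mouse 4), and they were 12.3- to 14.7-fold for the other 3. Leaving out control mouse 2, 3, 4 or 5 left 2 ASVs called, since the others then fell under the minimum.

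**Figure D3:**
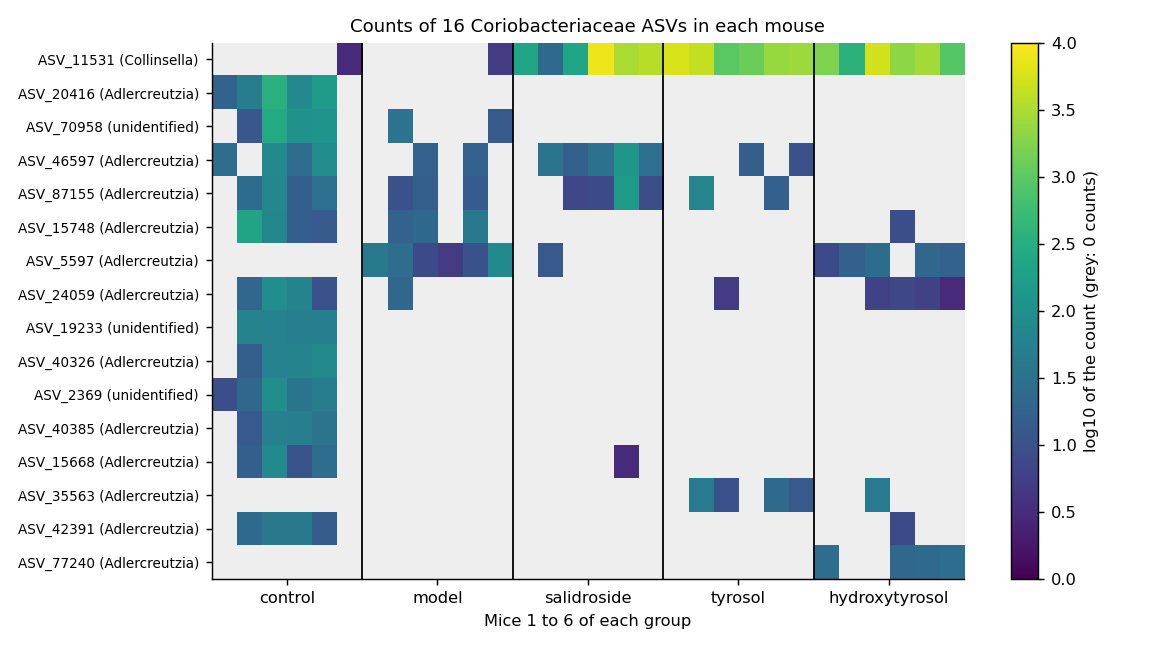
Counts (log10 colour scale, grey for 0) of the 16 Coriobacteriaceae ASVs that passed the minimum in at least 1 comparison, in mice 1 to 6 of each group. ASV_11531 of Collinsella fills all 18 treated mice, ASV_20416 occurs in 5 control mice only, and ASV_5597 occurs in all 6 model mice and in no control or tyrosol mouse.

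Of the 66 Adlercreutzia ASVs, 17 were found in treated mice only, against 41.0% of all 12980 ASVs. ASV_35563 was found in tyrosol mice 2, 3, 5 and 6 with 46, 10, 23 and 13 counts and in hydroxytyrosol mouse 3 with 43, and in no other mouse. It was at least 4.94-fold higher in the tyrosol than in the model group (edgeR adjusted p = 0.0323), or at least 3.10-fold without tyrosol mouse 2. ASV_77240 was found only in hydroxytyrosol mice 1, 4, 5 and 6, with 27, 22, 23 and 28 counts. It was at least 6.03-fold higher in the hydroxytyrosol than in the model group (adjusted p = 0.00515) and at least 6.11-fold higher than in the tyrosol group (adjusted p = 0.0129). Against salidroside mice, which held 0, it had an adjusted p of 0.0528. Both ASVs had 10 or more counts in exactly 4 mice of 1 group, so they passed the minimum through the group in which they were high, and these p-values are no support for a difference.

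ASV_46597 of Adlercreutzia was found mainly in salidroside and control mice, at mean shares of 0.0525 and 0.0539%. Salidroside mice 2 to 6 held 35, 17, 32, 131 and 29 counts, mouse 1 held 0, and all 6 hydroxytyrosol mice held 0. It was at least 15.2-fold higher in the salidroside than in the hydroxytyrosol group (edgeR adjusted p = 0.0253), or at least 9.69-fold without salidroside mouse 5. It too passed the minimum through the salidroside mice alone. Control mice 1, 3, 4 and 5 held 27, 82, 27 and 92 counts of it, and 2 model and 2 tyrosol mice held 10 to 18. Against the model group the adjusted p for salidroside was 0.595, and against the tyrosol group it was 0.637.

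The background of these calls differed between comparisons. Of the ASVs tested, 4.19% of 358 were called for salidroside against the model group, where 0 of the 3 family ASVs tested outside Collinsella were called. For tyrosol against the model group 8.49% of 424 were called, and 2 of 4 in the family. For hydroxytyrosol against the model group 32.8% of 290 were called, and 1 of 2 in the family. Between compounds, 0% of 394 were called for salidroside against tyrosol, with 28 at an unadjusted p under 0.05, and 0 of 3 in the family. For hydroxytyrosol against tyrosol 27% of 319 were called, and 2 of 4 in the family. For salidroside against hydroxytyrosol 10.7% of 225 were called, and 1 of 4 in the family. Single mice decided most of these calls. For tyrosol against the model group, leaving out model mouse 1 or 3 or tyrosol mouse 2, 3, 5 or 6 left 1 call, and leaving out model mouse 2, 5 or 6 left 0. For hydroxytyrosol against the model group, leaving out hydroxytyrosol mouse 1, 4, 5 or 6 left 0. For hydroxytyrosol against tyrosol, leaving out hydroxytyrosol mouse 1, 2 or 4 left 1, and leaving out mouse 5 or 6 left 0. For salidroside against hydroxytyrosol, leaving out salidroside mouse 6 left 0, and leaving out hydroxytyrosol mouse 2 or 3 gave 2.

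The number of family ASVs in a mouse was also compared, in the table rarefied to equal depth. Control mice 1 to 6 had 7, 18, 35, 26, 34 and 1 ASVs, and model mice 1 to 6 had 1, 6, 5, 2, 8 and 7. Control mice 2 to 5 again lay above every model mouse. The means were 20.2 ± 14.1 and 4.83 ± 2.79 (SD, n = 6 each), a difference of −15.3 ASVs (95% interval −28.3 to −1, two-sided exact permutation p = 0.0433, adjusted p = 0.159 over the 10 exact tests). It did not pass after correction. Over all families, a control mouse had 879 to 1320 ASVs and a model mouse 500 to 963. The treated mice had 2 to 17 Coriobacteriaceae ASVs, of which 1 to 14 lay outside Collinsella.

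**Figure D4:**
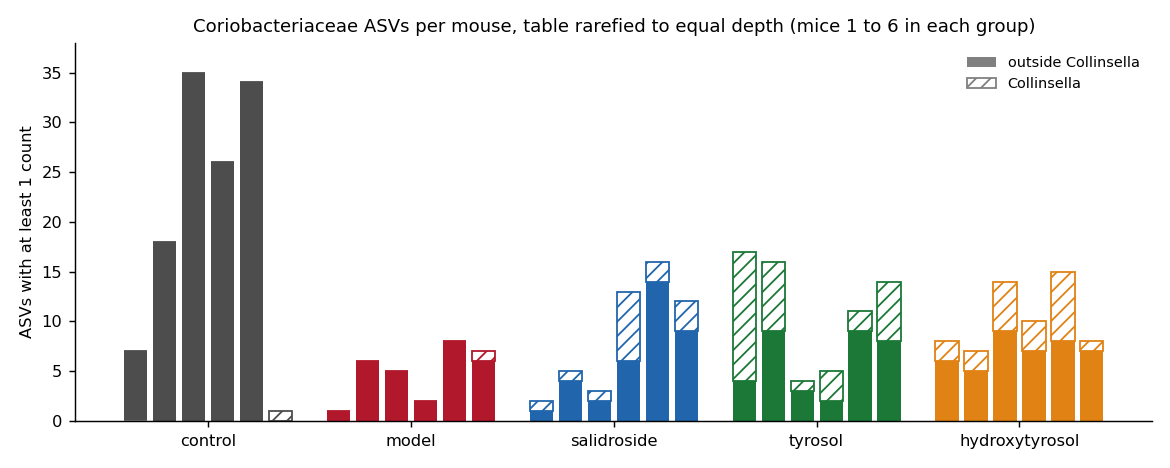
Number of Coriobacteriaceae ASVs with at least 1 count in each mouse of the rarefied table, mice 1 to 6 in each group. Filled bars are ASVs outside Collinsella and hatched bars are Collinsella ASVs. Control mice 2 to 5 reached 18 to 35 ASVs, the model mice 1 to 8, and the treated mice 2 to 17 with Collinsella in each of them.

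The genera whose share followed that of Collinsella most closely over the 18 treated mice were looked up among 74 genera outside the family with 10 or more counts in at least 9 of these mice. They were Dorea (Spearman's rho 0.779), the unclassified Lachnospiraceae (rho 0.678) and Clostridium as placed in Erysipelotrichaceae (rho 0.612). Dorea and Lachnospiraceae ferment carbohydrates in the gut. Pearson's r was 0.464, 0.648 and 0.690 in the same order. Without the mice farthest from the median Collinsella share, rho over 16 mice was 0.761, 0.671 and 0.456. Over the 16 mice, Allobaculum (rho 0.524) and Pseudoramibacter_Eubacterium (rho 0.468) stood above Clostridium. Dorea had rho of 0.880 within the salidroside group, 0.314 within the tyrosol group and 0.928 within the hydroxytyrosol group, each over 6 mice. In the same order, rho was 0.771, 0.486 and 0.6 for the unclassified Lachnospiraceae and 0.829, 0.0286 and 0.829 for Clostridium. These are descriptions over shares that have a total in common, and the likeness was not tested.

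Within the family, rho with Collinsella over the 18 treated mice was 0.691 for the unidentified label, 0.515 for the unclassified label, 0.238 for Adlercreutzia and 0.157 for Coriobacterium. Over the 16 mice it was 0.551, 0.636, 0.5 and −0.0508 in the same order. Except for Adlercreutzia, these labels lie under the minimum set for the genera outside the family. The unidentified label was at 0 in 11 of the 18 mice, the unclassified label in 2 and Coriobacterium in 5, and they reached 10 counts in 3, 4 and 1 of them, so their rho rests on few counts and on ties at 0. Within the salidroside, tyrosol, and hydroxytyrosol groups, rho for Coriobacterium was 0.371, 0.543 and −0.698, each over 6 mice. For Collinsella over the 18 treated mice, rho was −0.467 with the Acinetobacter share and 0.593 with the summed share of the listed anaerobes. With the total count of the mouse it was 0.228. The listed anaerobes took 6.93% ± 6.09 of counts in the salidroside group, 6.85% ± 3.51 in the tyrosol group and 10.7% ± 5.36 in the hydroxytyrosol group (SD, n = 6 each), against 5.73% ± 6.62 in the model group.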

How the data were processed

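Counts per ASV were analysed in 30 stool samples, 6 for each of 5 groups, as labelled. The authors merged reads with FLASH, filtered them with QIIME and removed chimeric sequences. They deposited raw counts per ASV with a taxon for each, in an unfiltered table, a filtered table used here, and one rarefied to 39768 counts per mouse. The labels name cutadapt, the read log lists a denoising step, and the taxonomy release is not given in the sources used here. Mice carry the numbers of the sample titles. The members and lists were chosen with earlier results of these data known. Named were all genera of the family, the 5 largest ASVs inside and 5 outside Collinsella, and the 3 genera most like it. ASVs called in a comparison were named after their values were seen.

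Shares were compared by two-sided exact permutation tests over 924 assignments (smallest p 0.00216), with Benjamini-Hochberg adjustment. Intervals come from inverting the test. edgeR 4.0.16 quasi-likelihood tests with TMM ran over all genera or ASVs with 10 counts in at least 4 of 12 mice. Alternatives were other tables, other totals, DESeq2, limma and leaving out each mouse. Totals without the listed aerobes were added after seeing the data. The edgeR fits were checked on simulated counts, and the exact test on draws from the observed shares. The pioglitazone group of the study was not analysed here.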

Additional observations from a re-analysis of the deposited data

Results flagged for a closer look

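Of 30 sets of 6 mice, made of 6 measures in 5 groups, 6 held a mouse whose gap to its nearest neighbour, as a part of the range of the set, was above the 95% critical value of Dixon for 6 values. Chance flags about 5% of such sets where values are continuous and independent, which does not hold here. In 3 of the 6 sets the other 5 mice were at 0, so any count set a mouse apart, and another 2 are nested measures of 1 mouse. Collinsella in control mouse 6 (0.00359%) and in model mouse 6 (0.00598%) stood apart because the other 5 mice of each group held 0 counts. Salidroside mouse 5 stood apart in the share of Coriobacteriaceae outside Collinsella (0.408%, against 0.0201 to 0.121% in the other 5) and in its main part, Adlercreutzia (0.352%, against 0.0161 to 0.116%). For the unidentified label, model mouse 2 held 0.0357%, against 0 to 0.0129% in the other 5, and hydroxytyrosol mouse 5 held 0.00354%, where the other 5 held 0 counts.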

How the results depend on the processing

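For model against control, the unadjusted exact permutation p of the share of Coriobacteriaceae passed 0.05 with the unfiltered and rarefied tables and without Acinetobacter in the total. It did not for the log10 share (difference −0.73, exact permutation p = 0.162), the mean rank (−3.33, p = 0.132) or the total without the listed aerobes (−0.775, p = 0.0628). For the family outside Collinsella it was lost without Acinetobacter (−0.780, exact permutation p = 0.0519), for the log10 share (−0.64, p = 0.249), for the mean rank (−3.33, p = 0.132) and without the listed aerobes (−0.775, p = 0.0628). For ASVs per mouse it was lost in the unfiltered table (−19.8, exact permutation p = 0.0519) and for the mean rank (−3.67, p = 0.0866). When each mouse was left out in turn, the difference lay between −1.02 and −0.653 for the family, between −1.03 and −0.653 outside Collinsella, and between −19.2 and −12.4 for ASVs per mouse. In each of the 3, 10 of 12 such runs had a p above 0.05, and the exceptions were control mice 1 and 6.

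The replicate numbers of the sample titles did not pair the mice, and for 3 of the groups (model, salidroside, hydroxytyrosol) the columns carry other mouse numbers than the titles. The numbers of the columns were not used for pairing. In 7 comparisons the deviations of same-numbered mice correlated between −0.427 and 0.478, and at most 2 of 12 mice correlated best with their own number. With the replicate block, these 3 results gave the same differences (−0.840, −0.841 and −15.3) with an exact permutation p of 0.0938 each, of a smallest possible 0.0312. In edgeR with the block, family ASVs called fell from 8 to 0 for model against control and from 2 to 0 both for tyrosol against model and for hydroxytyrosol against tyrosol, and all ASVs called for model against control fell from 125 to 14.

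Signs turned for several small differences in share, given in percentage points unless stated. Collinsella in model against control became −0.000342 without Acinetobacter and −0.10 for the log10 share, and leaving out 1 mouse gave −0.000598 to 0.000996. Outside Collinsella, salidroside against model became −0.0305 without Acinetobacter and −0.0740 without the listed aerobes (1 mouse left out, −0.0171 to 0.0606), and hydroxytyrosol against model became 0.00335 in the rarefied table and 0.0879 for the log10 share (−0.0193 to 0.0102). Collinsella in hydroxytyrosol against tyrosol was −3.31 without Acinetobacter and −3.14 without the aerobes (−1.24 to 0.0656). Salidroside against hydroxytyrosol was −0.30 for the log10 share and −0.667 for the mean rank (−0.756 to 1.14), and salidroside against tyrosol lay between −1.39 and 0.601 when 1 mouse was left out.

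Log2 fold changes that did not pass the test also turned. Adlercreutzia in salidroside against model became −0.13 with the replicate block and −0.00904 with no filter (1 mouse left out, −0.87 to 0.54), and the unidentified label became 0.13 for centred log-ratios (−1.27 to 0.24). Collinsella in salidroside against tyrosol became 0.0780 with DESeq2, 0.14 with no filter and in the rarefied table, 0.24 with all 30 mice and 0.10 in the unfiltered table (−0.42 to 0.55). In salidroside against hydroxytyrosol, Collinsella became −0.74 with the block and −0.72 for centred log-ratios (−0.0189 to 0.779), the unclassified label −0.27 and −0.23, and Adlercreutzia lay between −0.43 and 1.26 when 1 mouse was left out. The cause of the turns was not tested.

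Family genera called for model against control were 0, and 1 with DESeq2, centred log-ratios, the rarefied table or without control mouse 6. Leaving out 1 mouse gave 2 to 9 family ASVs called for model against control, 0 to 2 for tyrosol against model, 0 to 1 for hydroxytyrosol against model, 0 to 2 for hydroxytyrosol against tyrosol and 0 to 2 for salidroside against hydroxytyrosol. The last was 2 without TMM and with DESeq2. Over all genera, 17 were called for model against control, and 11 to 38 under the alternatives other than leaving out a mouse. Salidroside against model had 4 (1 to 11), tyrosol against model 2 (1 to 12), hydroxytyrosol against model 5 (3 to 19), salidroside against tyrosol 0 (0 to 5), hydroxytyrosol against tyrosol 1 (0 to 12) and salidroside against hydroxytyrosol 0 (0 to 7). Leaving out 1 mouse gave 10 to 34 genera for model against control, 2 to 4 for salidroside, 2 to 5 for tyrosol and 1 to 11 for hydroxytyrosol against model, and 0 to 1 for salidroside and for hydroxytyrosol against tyrosol. The ASVs called for salidroside against model were 15 (0 to 21), for tyrosol against model 36 (18 to 46) and for salidroside against tyrosol 0 (0 to 5). Leaving out 1 mouse gave 48 to 173 ASVs called for model against control (125 with all mice), 34 to 125 for hydroxytyrosol against model (95), 45 to 111 for hydroxytyrosol against tyrosol (86) and 4 to 34 for salidroside against hydroxytyrosol (24). At these depths, Collinsella below 3 counts in a mouse could not be told from 0, and ASVs under the minimum of 10 counts in 4 mice were not tested.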
